A study of Rattus norvegicus with 48 samples.

Results

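miR-21 is a microRNA (miRNA) hairpin from which both arms are cut as mature miRNAs, miR-21-5p and miR-21-3p (rno-miR-21-5p and rno-miR-21-3p in the count table, rno standing for rat). The 2 arms are 2 of the 645 rat miRNAs counted by small RNA sequencing in blood plasma, and they were picked by name. The libraries came from 12 rats sampled once before surgery, which is the baseline (week 0), and again at weeks 1, 4 and 8 after a hole was drilled in the skull roof (a calvaria defect), which gives 48 samples. The animals were male, 12 weeks old at surgery and, by the study's methods, Sprague-Dawley. At the end of the study, 6 were chosen by microCT as strong ("good") regenerators (rats 2, 5, 17, 21, 23 and 29) and 6 as weak ("bad") regenerators (rats 3, 6, 7, 16, 25 and 26). They were the best and worst healers by bone volume in a larger set of operated rats, so the groups are selected extremes. All 12 carried the defect. It was left empty or was filled with a collagen hydroxyapatite (CHA) scaffold, either alone, with a plasmid for BMP2 and miR-590-5p, or with vesicles of mesenchymal stromal cells (MSC-EVs). These treatments were spread unevenly over the strong and weak rats, and which rat had which treatment was not used here. The baseline samples carry no regeneration label of their own and were placed by animal.

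miR-21 is among the most abundant miRNAs of many cell types and body fluids, and it is known to rise in inflamed, fibrotic and healing tissue. After the hairpin is cut, one arm is usually kept by Argonaute as the guide that silences mRNAs, while most copies of the other arm are degraded. For miR-21 the guide is mainly the 5p arm, whose well-known targets include the translation inhibitor Pdcd4. In bone, miR-21-5p has been linked to both bone-forming and bone-resorbing cells. Plasma holds miRNAs in vesicles and protein complexes shed by many tissues, so that a plasma level names no cell of origin, and fewer releasing cells cannot be told apart from less miRNA released per cell.

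The mature arms are shown because targets are recognised through the seed, bases 2 to 8 counted from the 5′ end, which is in capitals here. Sequences are those of RefSeq.
miR-21-5p: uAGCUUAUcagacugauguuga
miR-21-3p: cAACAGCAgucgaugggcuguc
Both lie on the minus strand of chromosome 10 of the GRCr8 build, miR-21-5p at chr10:71902653-71902674 and miR-21-3p at chr10:71902615-71902636. In the 92-base hairpin at chr10:71902600-71902691, shown to place the arms on either side of the loop, the arms are in capitals.
miR-21 hairpin: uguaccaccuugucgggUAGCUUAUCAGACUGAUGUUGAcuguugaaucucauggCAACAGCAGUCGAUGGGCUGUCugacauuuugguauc
The neighbouring genes in the annotation are Tubd1 and Vmp1. Vmp1, which encodes a membrane protein of autophagy, lies on the same strand and did not overlap the hairpin there. The arms have different seeds, AGCUUAU and AACAGCA, and 0 other miRNAs among the 693 mature sequences of the table carried either one. The 5p seed is also that of miR-590-5p, the miRNA encoded by the plasmid of one treatment, whose level was not analysed here.

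The 5p arm far outnumbered the 3p arm in every library. Levels are given as reads per 1000000 miRNA reads (RPM), and the libraries held between 393259 and 1586398 miRNA reads, with a median of 796311. Before surgery, miR-21-5p ranged from 31285 to 71111 RPM with a median of 43091, and its median rank among all miRNAs was 6. The 3p arm ranged from 25.9 to 55.7 RPM with a median of 44.1, and its median rank was 219.5. These levels rest on 5048 to 96758 reads of the 5p arm, but on only 17 to 100 reads of the 3p arm in a library, with a median of 39. The relative counting error is therefore larger for the 3p arm.

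miR-21-5p fell at week 8, and it was not called at weeks 1 and 4. At week 1, it ranged from 21919 to 56757 RPM with a median of 43027. At week 4, the range was 27162 to 67293 RPM and the median 45455. At week 8, the range was 12836 to 41231 RPM and the median 23984. In order of time, the 4 means were 46997 ± 13090, 41679 ± 11876, 45468 ± 10785 and 24372 ± 7513 RPM (SD, n = 12 rats each). All 12 rats had less miR-21-5p at week 8 than before surgery, and 11 of the 12 week 8 samples lay below the lowest baseline sample. The exception was rat 29, a strong regenerator, at 41231 RPM. At weeks 1 and 4 the samples overlapped those of baseline, with 7 and 6 of 12 rats lower.

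miR-21-3p moved the other way. It ranged from 18.7 to 96.9 RPM with a median of 43.3 at week 1 and from 20.1 to 78.7 RPM with a median of 34.8 at week 4. At week 8, it ranged from 52.2 to 120.5 RPM with a median of 82.5. Its mean was 42.2 ± 10.3 RPM before surgery and 86.1 ± 23.2 RPM at week 8 (SD, n = 12 rats each), with SDs of 19.6 and 16.5 RPM at the times between. All 12 rats had more miR-21-3p at week 8 than before surgery, and 10 of the 12 week 8 samples lay above the highest baseline sample. Those of rats 26 and 29 were the exceptions, at 52.2 and 54.5 RPM. At week 1 the 3p arm was higher in 7 of 12 rats, and at week 4 it was lower in 8 of 12.

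**Figure D1:**
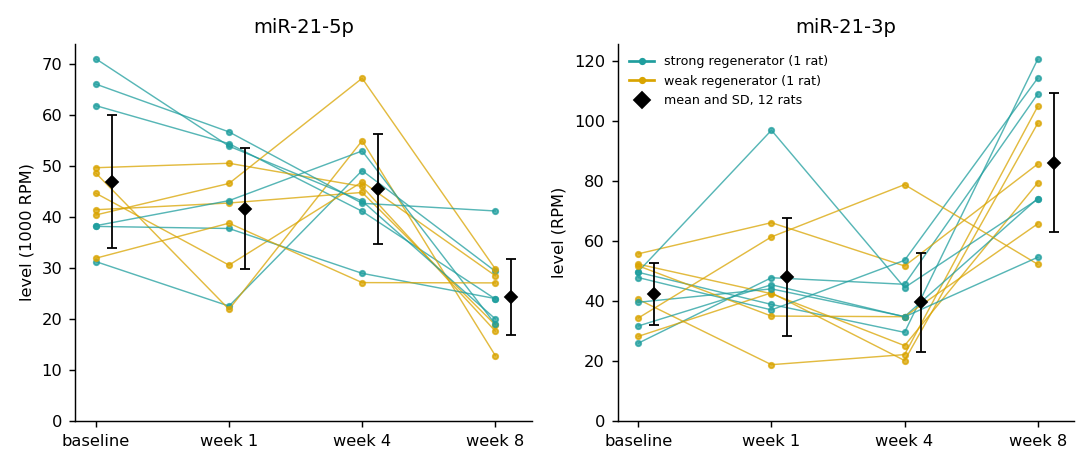
Levels of miR-21-5p (left, in units of 1000 RPM) and miR-21-3p (right, RPM) at baseline and weeks 1, 4 and 8, with 1 line per rat coloured by regeneration group and the mean and SD of 12 rats as black diamonds. The mean of the 5p arm went from 46997 to 24372 RPM between baseline and week 8 while that of the 3p arm went from 42.2 to 86.1 RPM, and the lines of strong and weak regenerators overlap throughout.

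The changes over time were tested with edgeR's quasi-likelihood test on the counts of all miRNAs after TMM scaling, which corrects library sizes for differences in composition. A miRNA was called at a false discovery rate (FDR) under 0.05. At week 8 against baseline, miR-21-5p fell by 0.91 on the log2 scale (SE 0.16, FDR = 4.5e-06) and miR-21-3p rose by 1.10 (SE 0.19, FDR = 4.6e-06). Week 8 was a time of wide change, with 40.3% of the tested miRNAs called (250 of 620), 26.1% lower and 14.2% higher. Being called at week 8 was thus common. It was more so among miRNAs with enough reads. With edgeR's filterByExpr, which drops miRNAs with few reads, 202 of 313 were called, 102 higher and 100 lower. After this scaling, the arms of this one hairpin had opposite signs. The median change of the 310 abundant miRNAs (mean of 10 RPM or more) was -0.12, so both arms lay well away from it.

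Neither arm was called at the earlier times. At week 1, the log2 change was -0.09 for miR-21-5p (SE 0.16, FDR = 0.696) and 0.24 for miR-21-3p (SE 0.19, FDR = 0.409), while 21.6% of the tested miRNAs were called (50 of 232). That count fell to 24 to 29 when rat 5, 7, 16, 17, 23, 25 or 29 was left out. At week 4 the log2 change was 0.05 for the 5p arm (SE 0.16, FDR = 0.927) and -0.01 for the 3p arm (SE 0.19, FDR = 1.0), with 4.19% called (27 of 645). The filter on abundance kept fewer miRNAs at week 1 than at week 4, so these shares have unlike bases. Without it, 25 of 645 were called at week 1 and 27 of 645 at week 4. Between weeks 1 and 4, the log2 differences were 0.14 (FDR = 0.793) and -0.25 (FDR = 0.624), and 0% of miRNAs were called by edgeR, against 79 at an unadjusted p under 0.05 and 1 called by DESeq2. Both arms at week 8 also differed from weeks 1 and 4. Against week 1, the 5p arm changed by -0.82 (FDR = 4.0e-05) and the 3p arm by 0.86 (FDR = 0.000303), with 33.0% of miRNAs called. Against week 4, the changes were -0.96 (FDR = 1.5e-06) and 1.11 (FDR = 3.9e-06), with 40.0% called. These contrasts share the week 8 samples. In order of mean level, week 8 was thus lowest for the 5p arm and highest for the 3p arm, and baseline, week 1 and week 4 did not differ beyond their spread.

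The ratio of the arms compares reads within a library and so needs no scaling between libraries. It is a ratio of reads, since ligation and PCR can favour either sequence. At baseline, there were 618 to 2389 reads of miR-21-5p for each read of miR-21-3p, with a median of 995. This was the third highest baseline ratio, by its mean log2, of the 76 hairpins with both arms at a mean of 10 RPM or more. The median ratio was 985 at week 1 (range 447 to 2284), 1051 at week 4 (782 to 2734) and 251 at week 8 (129 to 756). On the log2 scale, with 0.5 added to each count, the means were 10.09 ± 0.65, 9.78 ± 0.74, 10.21 ± 0.61 and 8.12 ± 0.73 in order of time (SD, n = 12 rats each). In all 12 rats the week 8 ratio was the lowest of the animal's own 4 samples. The ratio in 10 of 12 rats at that time was under every one of the 36 earlier samples, and the exceptions were rats 26 and 29.

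Paired within rats, the log2 ratio at week 8 was lower than at baseline by 1.97 on average, a change of -1.97 with an SD of 1.00 and a 95% confidence interval of -2.61 to -1.34 (t interval over 12 rats). That is a 3.93-fold drop. The exact two-sided sign-flip permutation test over the 12 rats gave p = 0.000488, the smallest it can give, and an adjusted p of 0.00133 over the 76 hairpins. At week 1 the change was -0.31 (SD 0.82, exact permutation p = 0.213, adjusted p = 0.360), with 9 of 12 rats lower. At week 4 it was 0.12 (SD 0.86, exact permutation p = 0.641, adjusted p = 0.994), with 5 of 12 rats lower. The standard error of a single log2 ratio from counting alone was 0.145 to 0.350, which is small beside the change at week 8. Put as a share, miR-21-3p made up a median of 0.1005% of the reads of both arms at baseline and 0.398% at week 8. The lowest and highest shares came from the same weak regenerator, rat 7, at 0.0366% at week 4 (95% Wilson interval 0.0244 to 0.0549) and 0.767% at week 8 (0.561 to 1.05). These intervals cover counting error only, since PCR copies were not told apart.

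**Figure D2:**
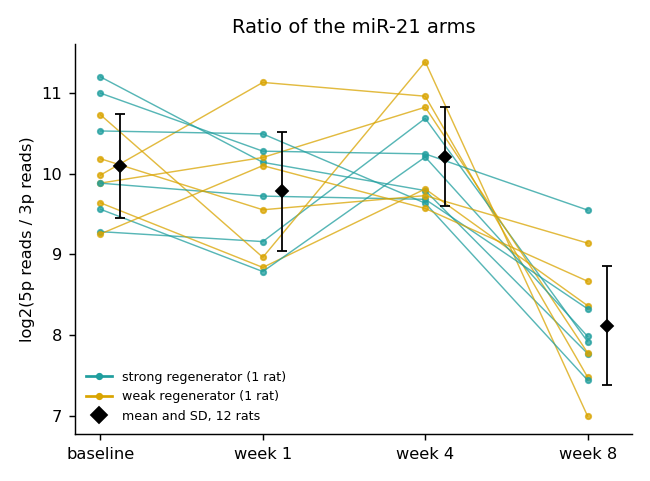
Log2 of the ratio of miR-21-5p to miR-21-3p reads at baseline and weeks 1, 4 and 8, with 1 line per rat coloured by regeneration group and the mean and SD of 12 rats as black diamonds. Every line ends at its own lowest point at week 8, where the mean was 8.12 against 10.09 at baseline.

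Arm ratios of many other hairpins also differed at week 8. Of the 76 hairpins, 51 (67.1%) were called, 28 of them lower (36.8%) and 23 higher, and the median absolute change was 0.87. The same exact test called 0% at week 1 (19 at an unadjusted p under 0.05) and 0% at week 4 (4 at an unadjusted p under 0.05). The median absolute change was 0.26 at week 1 and 0.12 at week 4. The change of miR-21 was the 9th largest of the 76 in absolute size and the 6th from the lowest. Its neighbours in that order were miR-30e (-2.17) and miR-130b (-1.99) on one side and miR-99b (-1.80) and miR-3559 (-1.79) on the other. For miR-21 the less abundant arm gained, which was also so in 48 of the 76 hairpins. Among the called ones the less abundant arm gained in 32 and lost in 19.

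**Figure D3:**
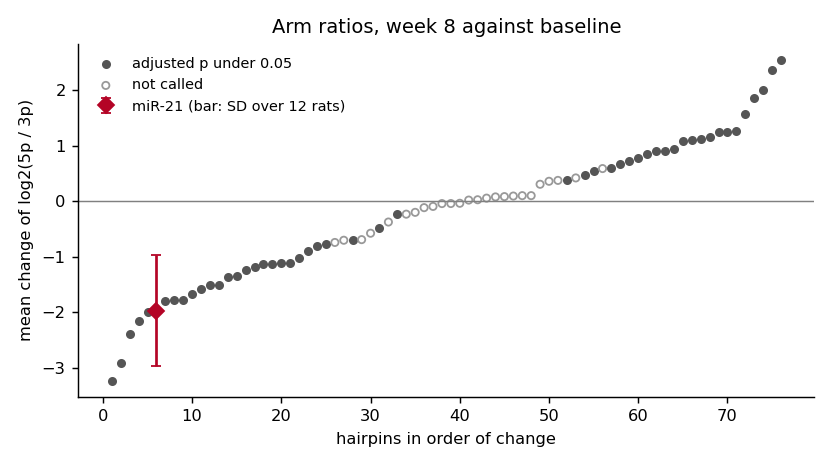
Mean change over 12 rats of the log2 ratio of 5p to 3p reads at week 8 against baseline for 76 hairpins in order of change, with filled circles for those at an adjusted p under 0.05, open circles for the rest, and miR-21 as a red diamond with its SD. miR-21 is the 6th from the lowest at -1.97, among 28 called lower and 23 called higher.

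The week 8 libraries stood apart from the others in their reads of the spike-in UniSp2, whereas the study describes the recovery of its spike-ins as comparable between samples. UniSp2, a synthetic RNA added at extraction, gave 91.1 to 143.9 reads per 1000 miRNA reads at week 8 (median 120.2), against 23.3 to 60.4 in the 36 other libraries, so the ranges did not overlap. miRNAs of red blood cells, of which 8 of 8 were in the table, summed to 26.6% to 37.0% of miRNA reads at baseline (median 33.3) and to 35.6% to 48.3% at week 8 (median 41.7). None of the 8 was at 0 in the medians of any week. The log2 ratio of miR-451-5p to miR-23a-3p, a usual index of red cell lysis, had medians of 2.30, 2.74, 2.55 and 3.03 in order of time. The part of either value in the changes of miR-21 was not tested. Time after surgery, the age of the rats and any separate handling of the week 8 samples cannot be told apart. With the red cell miRNAs taken out of the library size, the week 8 changes were -0.73 for miR-21-5p (FDR = 2.3e-05) and 1.25 for miR-21-3p (FDR = 1.1e-06).

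The direction for the 3p arm at week 8 depended on the scaling. Per UniSp2 read, miR-21-5p had a median of 1.201 reads at baseline and 0.204 at week 8, and at week 8 all 12 rats were under the 36 earlier samples. Per 1000 UniSp2 reads, miR-21-3p had a median of 1.25 reads at baseline and 0.729 at week 8, and 10 of 12 rats were lower. In edgeR with UniSp2 as the scale, the week 8 change was -2.77 for the 5p arm and -0.81 for the 3p arm (FDR = 8.7e-05), while the median of the 310 abundant miRNAs moved from -0.12 to -2.01. On that scale 1 miRNA was called higher and 498 lower at week 8, against 88 and 162 after TMM. Leaving the red cell miRNAs out of the library size gave 105 and 127. The gap between the arms was much the same on each scale. On both, the 3p arm lay above the median miRNA and the 5p arm below it. A change of scale shifts all miRNAs of a library by the same factor, so this was nearly fixed in advance. It is no separate support for the direction of either arm.

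**Figure D4:**
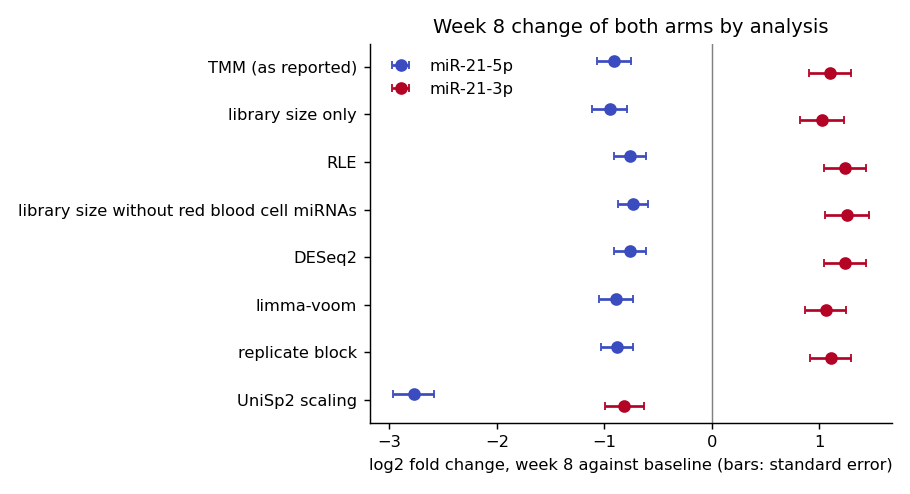
Log2 fold change at week 8 against baseline of miR-21-5p (blue) and miR-21-3p (red) under 8 analyses, with bars for the standard error. The 5p arm is below 0 in each, at -0.91 after TMM and -2.77 after UniSp2 scaling, and the 3p arm is above 0 in all but UniSp2 scaling, where it is at -0.81.

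Neither arm was called between strong and weak regenerators. Over all 4 times, the strong minus weak difference was 0.07 on the log2 scale for miR-21-5p (SE 0.11, FDR = 0.896) and 0.02 for miR-21-3p (SE 0.14, FDR = 0.979). edgeR called 0% of the 645 miRNAs, with 64 at an unadjusted p under 0.05, and DESeq2 and limma-voom called 0 as well. The study itself reports miR-133a-3p as higher and miR-375-3p as lower in strong regenerators over all times, at the same FDR threshold. With each rat left out in turn, edgeR called 0 to 2. This fit counts the 4 samples of a rat as independent. Over the 12 rats, the difference of mean log2(RPM + 1) was 0.13 for the 5p arm (exact permutation p = 0.377) and 0.12 for the 3p arm (exact permutation p = 0.413), where 6 against 6 can go as low as 0.00216.

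Within each time, the ranges of the groups overlapped for both arms. At baseline, miR-21-5p spanned 31285 to 71111 RPM in strong (median 50129) and 31954 to 49726 in weak regenerators (median 43091). The 3 highest baseline samples, from rats 2, 17 and 29, were all strong, but the lowest was strong too. At week 8 the 5p arm spanned 19003 to 41231 RPM in strong (median 23984) and 12836 to 29860 in weak rats (median 22986). The 3p arm at week 8 spanned 54.5 to 120.5 RPM in strong (median 91.5) and 52.2 to 104.8 in weak rats (median 82.5). The strong minus weak log2 differences of the 5p arm were 0.23, 0.15, -0.22 and 0.11 in order of time, each with an SE of 0.22. Those of the 3p arm were -0.13, 0.16, 0.03 and 0.03, with SEs of 0.28 to 0.29. The FDRs were 0.793 to 1.0. The background was 0% called at baseline, week 1 and week 4 (42, 32 and 25 miRNAs at an unadjusted p under 0.05, and 0 by DESeq2) and 0.155% at week 8, which is 1 miRNA in edgeR and 0 in DESeq2 or with UniSp2 scaling. With UniSp2 as the scale, the 5p difference at week 4 was -0.44 (FDR = 0.475), and the median of the 310 abundant miRNAs for the same difference was -0.34. With SEs of this size, differences of the order seen here were not detectable.

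After TMM scaling, the fall of the 5p arm and the rise of the 3p arm at week 8 were called within each group. Over all tested miRNAs, 183 of 532 were called in strong and 166 of 520 in weak regenerators. The UniSp2 scale, on which the 3p arm was lower over all rats, was not fitted within groups. Between baseline and week 8, the 5p arm changed by -0.96 in strong (SE 0.23) and -0.84 in weak regenerators (SE 0.23), and the 3p arm by 1.18 (SE 0.28) and 1.02 (SE 0.28). The difference of these changes, strong minus weak, was -0.12 for the 5p arm (SE 0.32) and 0.16 for the 3p arm (SE 0.40), both at FDR = 1.0. The difference furthest from 0 relative to its error was that of the 5p arm at week 4, -0.45 (SE 0.32, unadjusted p = 0.162, FDR = 0.762), where the level changed by -0.17 in strong and 0.28 in weak rats. With UniSp2 as the scale it was -0.75 (SE 0.35, unadjusted p = 0.0355, FDR = 0.424), and the median of the 310 abundant miRNAs for the same interaction was -0.44. Of such interactions, edgeR called 0% at each of the 3 times after surgery, with 27, 38 and 26 miRNAs at an unadjusted p under 0.05, and DESeq2 called 0. For the log2 ratio of the arms, the mean over the 4 times was 9.55 ± 0.41 in strong and 9.55 ± 0.25 in weak rats (SD, n = 6 each, exact permutation p = 0.989). At single times the strong minus weak differences were 0.30, -0.03, -0.34 and 0.09 from baseline to week 8, with exact permutation p-values of 0.448, 0.944, 0.344 and 0.825 and an adjusted p of 0.989 for all.

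Across rats at one time, no correlation between the arms passed the test. Pearson's r of their log2(RPM + 1) over 12 rats was -0.43, 0.014, 0.21 and -0.48 in order of time, with permutation p-values of 0.156, 0.963, 0.517 and 0.115. Spearman's rho was -0.32, 0.13, -0.0070 and -0.36, with permutation p-values of 0.307, 0.699, 0.991 and 0.248. Adjusted over the 4 times, the lowest p was 0.313 for r and 0.614 for rho. Without the 2 rats farthest from the median of the 5p arm, r was -0.59, -0.15, 0.28 and -0.23.

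**Figure D5:**
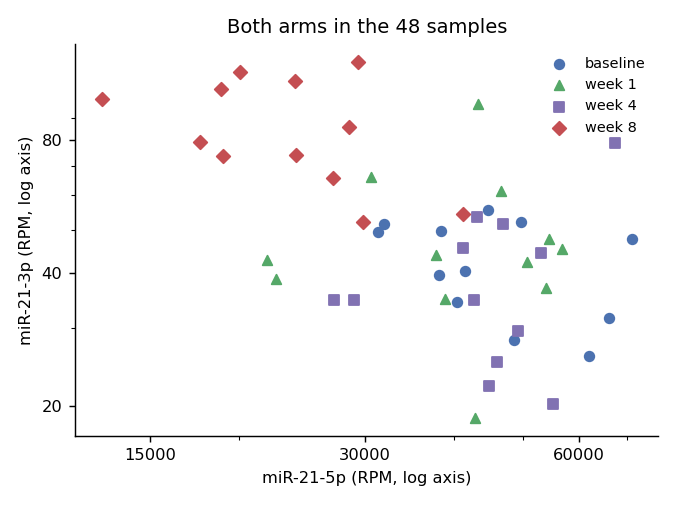
miR-21-3p against miR-21-5p in RPM, both on log axes, in the 48 samples marked by time. Most week 8 samples lie at upper left, and the week 8 medians were 23984 RPM for the 5p arm and 82.5 RPM for the 3p arm. Exceptions are rat 29, inside the baseline range of both arms (41231 and 54.5 RPM), and rat 26, inside that of the 3p arm only (29860 and 52.2 RPM). The other 3 times overlap around 43091 and 44.1 RPM, the baseline medians.

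The miRNAs most like each arm were different ones. Likeness was Spearman's rho of log2(RPM + 1) over the 48 samples, against 308 other miRNAs with a mean of 10 RPM or more, given as a description since the values share libraries, depth and a common total. miR-21-5p was most like miR-146a-5p (0.95), a brake on NF-kB signalling, miR-29a-3p (0.92), which targets collagen mRNAs, miR-361-5p (0.92), miR-150-5p (0.90), a lymphocyte miRNA, and miR-30d-5p (0.90). With the mean of each week taken off, miR-146a-5p (0.92), miR-29a-3p (0.90), miR-30d-5p (0.86) and miR-150-5p (0.83) were still among the first 5, joined by miR-24-3p (0.81). All 6 were lower at week 8, with log2 changes of -0.68 for miR-29a-3p to -1.91 for miR-361-5p, beside 26.1% lower over all tested miRNAs. Among the 313 miRNAs kept by filterByExpr, 100 were lower. The week 8 samples took part in the choice by rho on levels, so a shared fall was partly built in. The log2 change of miR-21-5p was -0.91, nearer to the upper end.

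For miR-21-3p, the closest were miR-532-5p (0.83), miR-425-5p (0.80), miR-500-3p (0.78), miR-361-3p (0.77) and miR-138-5p (0.75). All 5 were higher at week 8, by 0.40 for miR-500-3p to 1.17 for miR-361-3p on the log2 scale, beside 14.2% higher over all tested miRNAs. Among the 313 miRNAs kept by filterByExpr, 102 were higher. The week 8 samples took part in this choice too, so a shared rise was partly built in. With week means taken off, miR-532-5p (0.68), miR-671 (0.66), miR-33-5p (0.64), miR-500-3p (0.64) and miR-362-3p (0.61) were nearest, all less close than those of the 5p arm. Of the ones added there, miR-362-3p was higher at week 8 (0.79). In edgeR, miR-33-5p (0.29, FDR = 0.098) and miR-671 (0.23, FDR = 0.256) were not called. The arms of miR-361 thus sat on opposite sides, its 5p arm beside miR-21-5p and its 3p arm beside miR-21-3p. Between the arms of miR-21 themselves, rho was -0.47 over the 48 samples and -0.16 with week means taken off.

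miRNAs known from injury and inflammation, where miR-21-5p is usually counted, were read beside it as a list of 10. All 10 were tested. At week 8, 5 were lower and 1 higher, where the shares over all tested miRNAs were 26.1% lower and 14.2% higher, with a median log2 change of -0.30 against -0.26 over the 620 tested miRNAs. Of the 313 miRNAs kept by filterByExpr, 100 were lower and 102 higher. The fallers were miR-214-3p (-2.07), a fibroblast miRNA, miR-146a-5p (-1.73), the p53-induced miR-34a-5p (-0.86), the hypoxia-induced miR-210-3p (-0.45) and miR-146b-5p (-0.44). The one that rose was miR-155-5p (0.92), which is induced in activated leukocytes. At week 1 only miR-214-3p of the list was called (-0.55), and at week 4 only miR-210-3p (-0.45), both lower, beside 21.6% and 4.19% of all tested miRNAs called in either direction, with list medians of -0.20 and -0.05 against -0.01 and 0 over all tested. Those shares are of 232 tested miRNAs at week 1 and 645 at week 4.

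Lists for blood cells and liver were read the same way. Beside them stand all tested miRNAs, of which 29 were higher and 21 lower of 232 at week 1 (median -0.01), 4.19% of 645 were called at week 4 (median 0), and 88 were higher and 162 lower of 620 at week 8 (median -0.26). With filterByExpr, 102 were higher and 100 lower of 313 at week 8. Of 8 red blood cell miRNAs, 6 were higher at week 1 and 0 lower (median 0.39), none was called at week 4 (median 0.30), and 5 were higher and 1 lower at week 8 (median 0.44). miR-451-5p, the most specific of them, was higher by 1.04 at week 8, and miR-144-3p was lower (-0.41) while miR-144-5p of the same hairpin was higher (1.15). Of 7 platelet miRNAs, 1 was lower at week 1, none was called at week 4, and 1 was higher and 2 lower at week 8 (median 0.07, with miR-23a-3p at 0.27, miR-24-3p at -1.50 and miR-199a-3p at -2.83). Of 6 white blood cell miRNAs, none was called at weeks 1 and 4, and 2 were higher and 3 lower at week 8 (median -0.57). Here too a hairpin was split, miR-142-3p being higher by 1.16 and miR-142-5p lower (-1.26). Of 4 liver miRNAs, 3 were higher at week 1 (median 1.09), none was called at week 4 (median 0.63), and 1 was higher and 2 lower at week 8, miR-122-5p being at -1.18. The lists share members, and miR-223-3p is in 3 of them.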

How the data were processed

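Small RNA of rat plasma was extracted with spike-ins and made into single-adapter libraries. Per the study's methods, the authors trimmed reads with cutadapt 3.3 and mapped them with Bowtie 1.3.0 and miRDeep2 to the rat genome and miRBase, and they deposited raw read counts per miRNA without normalization. The methods name the build Rnor_6.0 while the submitters' processing notes name another, so no coordinate was taken from the counts; those given are RefSeq's. Equal amounts of library were pooled, so read totals (393259 to 1586398) do not measure RNA content.

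From the counts, 645 miRNAs were tested without the 3 spike-ins in R 4.3.3 with edgeR 4.0.16 (quasi-likelihood, TMM, independent filtering as in DESeq2, Benjamini-Hochberg, FDR threshold 0.05). Fits used all 48 samples with terms for week, for group and week, or for 8 groups of regeneration and week. Arm ratios and group means over rats had exact two-sided permutation tests (scipy 1.17.1). Correlations used 100000 permutations. Alternatives were DESeq2 1.42.0, limma-voom (limma 3.58.1), other scalings and filters, rat as a block, and each rat left out. Scripts were tested on simulated data. The numbers pair the samples because the 4 samples of a number come from the same animal, by the labels. Deviations from group means correlated at 0.110 on average within a rat and -0.0096 between rats, and 6 of 12 rats were over 0.1.

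The members and lists were chosen with earlier results of these data known. Named miRNAs were both arms, the listed miRNAs, the 5 most alike to each arm by rho (also with week means taken off), and the hairpins next to miR-21 in the order of arm ratio changes. Of the 645 miRNAs, 583 matched a RefSeq mature sequence. The 2 arms of miR-590, listed because its 5p arm has the seed of miR-21-5p, were not analysed here.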

Additional observations from a re-analysis of the deposited data

Results flagged for a closer look

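Outlying samples were looked for in the 24 sets of 6 rats formed by 8 groups and 3 measures (both arms and the log2 ratio), by the gap of the highest or lowest sample to its neighbour over the range. One was found. Among strong regenerators at week 1, rat 21 had 96.9 RPM of miR-21-3p, and the next highest sample had 47.7 RPM. The gap was 0.821 of the range, against a critical value of 0.625. Chance gives about 1 such flag in every 20 sets. The same library held 43260 RPM of miR-21-5p, within the range of its group. Without rat 21, neither arm was called at week 1, and the calls at week 8 were kept for both.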

How the results depend on the processing

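At week 8 against baseline, miR-21-5p was lower and called in all 10 alternatives (-2.77 to -0.73) and without each rat in turn (-0.96 to -0.72, highest FDR 0.000156). miR-21-3p was higher and called in 9 of 10 alternatives and without each rat in turn (0.99 to 1.28). The exception was UniSp2 scaling (-0.81). On that scale its change was also -0.72 against week 1 and -0.40 against week 4 (FDR = 0.0511), and among uncalled differences it was -0.091 at week 1, -0.17 for strong against weak at week 4 and -0.12 for the week 4 interaction. The 5p interaction at week 4 went from -0.45 to -0.75 with UniSp2. Also uncalled on that scale were -0.42 for the 3p arm at week 4 (FDR = 0.111) and -0.35 for the 5p arm at week 1 (FDR = 0.168). Per UniSp2 read, 10 of 12 rats were lower in each case. The medians of the 310 abundant miRNAs on that scale were -0.29 at week 4 and -0.32 at week 1. The alternatives for pairs of weeks after surgery, single weeks and interactions were chosen after seeing the data. The arm ratio at week 8 was -2.10 to -1.81 without each rat in turn. Uncalled values near 0 changed sign. The 5p arm at week 4 was -0.048 with library size only, -0.34 with UniSp2 and -0.036 to 0.12 without each rat. The 3p arm was -0.18 to 0.069 at week 4 and -0.028 to 0.11 for strong against weak without each rat. The arm ratio was -0.00027 to 0.26 at week 4 and -0.14 to 0.088 for strong against weak. For all of these, the cause was not tested. In the fit with a replicate block for each rat, the paired week 8 changes were -0.88 (5p) and 1.11 (3p), those at week 1 -0.08 and 0.22, and those at week 4 0.08 and -0.04, so the pairing changed no call. The count of called miRNAs at week 1 was 50, 25 without a filter, 32 with library size only and 24 to 47 without each rat. With UniSp2 it was 63 against 27 at week 4, 499 against 250 at week 8, 476 against 180 for week 8 against week 1, and 454 against 213 for week 8 against week 4. The 3p arm rested on a median of 39 reads.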
